A study of Drosophila melanogaster with 9 samples.

Results

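Heads of adult Drosophila melanogaster females that carry an allele of Ime4, in either of 2 gene doses, were compared with control heads by their messenger RNA. The comparison sets the average of the heterozygous and the homozygous group, each weighted equally on the log scale, against the control group. It measures a mean over the carriers, and a single carrier group can produce the whole difference. All 9 libraries of the series enter the comparison: 3 from flies heterozygous for Ime4, 3 from flies homozygous for Ime4 and 3 from control flies labelled wt. This makes 6 allele libraries against 3 control libraries. All were females of 1 to 2 days, raised at 25 °C and 60% humidity, and whole heads were used. The labels name neither the allele, nor the part of the gene it changes, nor the strain of the control flies, so an effect of the allele and a difference in genetic background that both carrier groups share cannot be told apart here. The labels do not say whether a group's libraries come from separate cultures, and p-values speak only for the variation among the libraries at hand.

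Ime4, named Mettl3 in newer annotations, is the enzyme that, within a larger complex, turns adenosines of messenger RNA into N6-methyladenosine (m6A). The mark is read by proteins with a YTH domain, of which YT521-B (Ythdc1) acts in the nucleus and Ythdf in the cytoplasm. In Drosophila the pathway is best known for the alternative splicing of Sex-lethal, the switch gene of female development, and the modification is abundant in the nervous system, where flies without the enzyme show defects of locomotion. The series title sets out neurogenesis and the determination of sex as its subjects. A heterozygous fly keeps a normal copy of the gene, and the average alone does not tell whether a transcript differs from control already at that dose.

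Between 2730289 and 4272550 reads per library fell in genes. Of 17558 gene rows, 8972 had enough reads to be tested. Levels are given in CPM, counts scaled to library size with TMM factors. Differences are log2 fold changes ± standard error (SE) from edgeR's quasi-likelihood test, and a gene counts as called at a Benjamini-Hochberg adjusted p under 0.05 over all 8972 genes. Libraries differed in ways the labels do not give. Control replicate 3 held eggshell and other ovary transcripts at 428.6 RPM (reads scaled to library size), against 4.742 to 16.53 in the other 8 libraries. Homozygous replicates 1 and 2 held transcripts of digestive enzymes at 1259 and 1417 RPM, against 185.4 to 278.9 in the other 7. Reads outside annotated genes made up 29.41 ± 2.833% in control and 21.36 ± 3.998% in allele libraries (SD, n = 3 and 6; exact permutation test, two-sided, p = 0.04762). Reads that did not map uniquely made up 15.49 ± 0.4392% and 11.37 ± 2.027% (p = 0.02381 by the same exact test, the smallest it can give). Both tests treat the 6 carriers as 1 group, but the shares fell in the order control, heterozygous, homozygous. Reads outside genes were 23.63 ± 4.675% in heterozygotes and 19.08 ± 1.622% in homozygotes, and reads without a unique position 12.49 ± 1.776% and 10.24 ± 1.823% (SD, n = 3). For reads outside genes the heterozygous range of 19.08 to 28.42% overlapped the control range of 26.23 to 31.67%. The part of either share in the results was not tested. The defining markers of neurons (elav, nSyb, Syt1 and brp) and of photoreceptors (ninaE, trp, Arr2 and ninaC) were abundant in every library, in accord with the tissue label. Markers of testis and male accessory gland were at or near 0 throughout.

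The targeted gene was lower in the carriers on average. Mettl3 (FBgn0039139, BDGP6 3R:24032157-24034257) had 17, 19 and 18 reads in control libraries, 8, 13 and 16 in heterozygotes and 3, 3 and 2 in homozygotes. All 6 allele libraries lay below all 3 control libraries, with the homozygous ones lowest. The average difference was -1.83 ± 0.34 (SE; edgeR adjusted p = 0.00254), and homozygous minus heterozygous was -2.34 on the log2 scale, which also passed the test (edgeR adjusted p = 0.0116) but missed it without heterozygous replicate 2 or 3 (edgeR adjusted p = 0.0584 and 0.065). With the 6 allele libraries treated as replicates of 1 group the value was -1.44 and the call was lost (edgeR adjusted p = 0.107). Ythdc1, the nuclear reader (FBgn0027616, 3L:3370451-3374170), stood at 124, 130 and 148 CPM in control libraries, 104, 103 and 88.7 in heterozygotes and 64.2, 56.5 and 62.5 in homozygotes. Here too the order of the groups was control, heterozygous, homozygous with no overlap, and the average difference was -0.79 ± 0.10 (edgeR adjusted p = 2e-04). Of the 9 tested genes of the m6A list these 2 fell and 0 rose. The other 7, among them the remaining subunits of the methyltransferase complex, lay between -0.23 and 0.59 on the log2 scale and none passed (lowest edgeR adjusted p = 0.124).

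**Figure D1:**
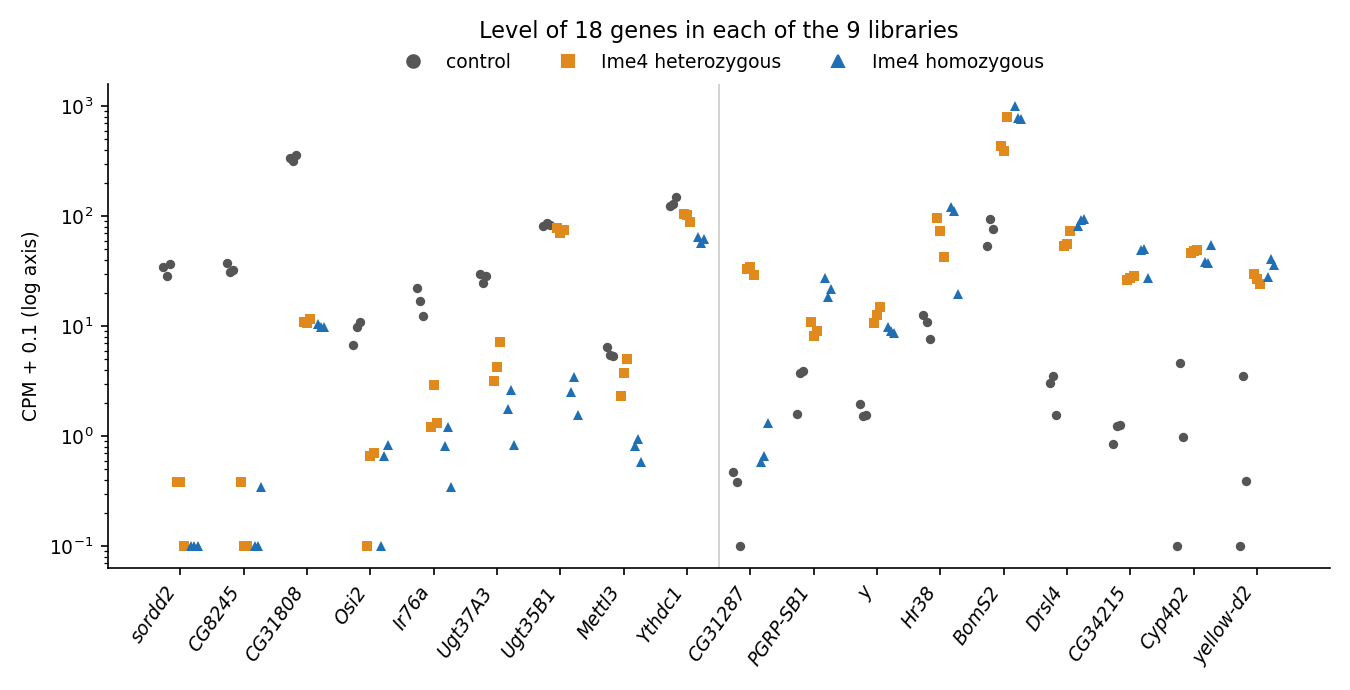
CPM plus 0.1 on a log axis for 18 genes in each of the 9 libraries (grey circles control, orange squares heterozygous, blue triangles homozygous). Genes left of the line were lower and genes right of it higher in the allele average; for sordd2, CG8245 and CG31808 both allele groups sit together far below control, while Ugt35B1 and CG31287 are far from control in 1 allele group.

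Across the transcriptome the carriers' average differed from control for 1449 genes, 16.2% of those tested. Of these, 785 were higher (8.75%) and 664 lower (7.4%), with a median absolute log2 fold change of 0.676, and 227 higher (2.53%) and 137 lower (1.53%) genes differed at least 2-fold. For 1123 of the 1449 (77.5%) all 6 allele libraries lay on the same side of all 3 control libraries. Of all tested genes 17% do so (8.92% above and 8.1% below). The called genes were picked by their difference in these same libraries, so the higher share among them is no separate support. For 195 of the 1449 the heterozygous libraries did not all lie beyond the controls, and for 139 the homozygous did not. Genes with extreme fold changes are named below only where carriers and control did not overlap, so their separation was set by the choice. The counts lean on single libraries: 893 genes were called without control replicate 1, 842 without control replicate 2 and 2276 without homozygous replicate 3. Taken separately against the same 3 controls, the heterozygous group gave 498 higher (5.55%) and 338 lower genes (3.77%), 9.32% in all. The homozygous group gave 978 (10.9%) and 787 (8.77%), or 19.7%.

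The homozygous group was also set against the heterozygous group, a separate contrast of the same fit, in which the control libraries enter through scaling, filter and the estimate of spread but not through their levels. The difference was called for 492 genes (5.48%), of which 303 were higher (3.38%) and 189 lower (2.11%) in homozygotes. That count was 139, 152 and 172 without heterozygous replicate 1, 2 and 3 and 1099 without homozygous replicate 3. Among the 1449 genes of the average it was called for 168 (11.6%): the homozygous libraries were further from control in 144 and the heterozygous in 24. For 812 of the 1449 (56%) the allele groups differed by less than 0.3 on the log2 scale and the difference was not called. The homozygous mean lay further from control than the heterozygous mean for 70.7% of the higher and 70.8% of the lower genes. A difference between the allele groups that misses the threshold does not show that they are equal.

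**Figure D2:**
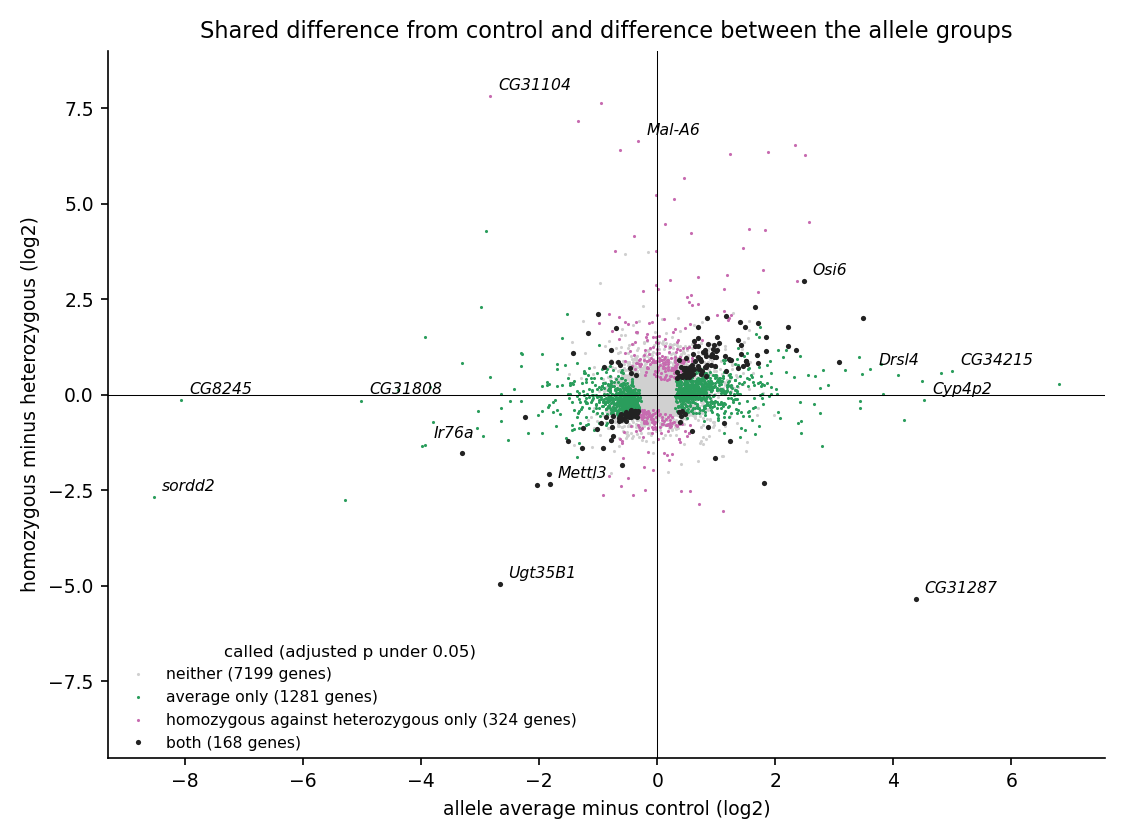
Each of 8972 tested genes, with the average of the allele groups minus control on the horizontal axis and homozygous minus heterozygous on the vertical axis, both in log2 units. Of the coloured genes 1281 were called in the average only, 324 between the allele groups only and 168 in both; sordd2, CG8245 and CG31808 lie far left and CG34215, Drsl4 and Cyp4p2 far right.

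Several transcripts were nearly absent from both carrier groups. sordd2 (FBgn0052581, X:15796908-15799162) had 93, 100 and 124 reads in the control libraries, 1, 1 and 0 in the heterozygous and 0 in each homozygous library. CG8245 (FBgn0033031, 2R:5668383-5669986) had 101, 110 and 111 reads in control and 2 reads over the 6 allele libraries. Over the groups the control level was 367-fold higher for sordd2 (95% counting interval 101 to 3042) and 373-fold higher for CG8245 (102 to 3089). Both genes were thus close to the limit of detection in heterozygotes as well as in homozygotes. CG31808 (FBgn0062978, 2L:16704286-16716195) stood at 337, 320 and 363 CPM in control and between 9.73 and 11.6 CPM in all 6 allele libraries. Its difference was -5.02 ± 0.10 (edgeR adjusted p = 3.55e-13), and the allele groups differed by -0.15 ± 0.15 (edgeR adjusted p = 0.695).

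CG31807 (FBgn0051807, 2L:16681819-16684008) lies close by on the same arm and went the other way. It had 0, 3 and 0 reads in control libraries, 32, 27 and 23 in heterozygotes and 20, 19 and 20 in homozygotes, a ratio of 20.3 (95% counting interval 6.81 to 99.7). The 3 control reads were all in replicate 2, and the fitted difference of 4.19 was 7.48 without that library. CG31808 overlaps Cyt-c-d on the other strand, and the use of strand in counting is not given in the sources used here, so reads of the pair could not be assigned with certainty. Of the 98 genes named here, 19 overlap a gene on the other strand and 7 overlap a gene on the same strand, and their counts share this limit.

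Other genes that fell have known or inferred roles. The long noncoding RNA lncRNA:CR32385 went from 12.3, 15 and 9.09 CPM in control to between 0 and 1.12 in the allele libraries (-5.30 ± 0.41, edgeR adjusted p = 2.48e-06). Without homozygous replicate 3 it stood at -6.16. Osi2, a member of the Osiris family of insect transmembrane proteins, had 18, 34 and 37 reads in control and at most 3 in any allele library (-4.39 ± 0.47, edgeR adjusted p = 4.28e-05). Ir76a, an ionotropic receptor of the antenna, went from between 12.3 and 22.3 CPM to between 0.243 and 2.8 CPM (-3.93 ± 0.33, edgeR adjusted p = 5.44e-06). The groups were separated for each of these, a condition for naming genes with extreme fold changes. ZnT33D, of the zinc transporter family, fell by 3.80, CG42260 by 3.04, the juvenile hormone-binding protein family gene Jhbp5 by 2.83 and the phosphoenolpyruvate carboxykinase gene Pepck2 by 2.49 on the log2 scale (edgeR adjusted p = 0.000148, 6.34e-08, 5.66e-05 and 1.62e-06). dpn, which encodes a bHLH repressor of neural stem cells, had 16, 20 and 25 reads in control libraries, 7, 0 and 2 in heterozygotes and 8, 4 and 10 in homozygotes (-2.29 ± 0.45, edgeR adjusted p = 0.00351). Its allele libraries were all below control, and without heterozygous replicate 1 the value was -3.03.

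Among the transcripts that rose, some were barely detected in control. lncRNA:CR44315 (FBgn0265374, 2R:12246695-12246995) had 0 reads over the control libraries and 18, 8, 11, 22, 10 and 20 reads in the 6 allele libraries, at least 12.8-fold higher taking 3 reads as the control total. CG34215 (FBgn0085244) stood at 0.743, 1.14 and 1.17 CPM in control libraries, 26.1, 27.4 and 28.4 in heterozygotes and 49.3, 49.7 and 27.5 in homozygotes (4.98 ± 0.32, edgeR adjusted p = 3.77e-07). Mec2, a stomatin-like protein gene, had 3 reads over the controls and 108 over the allele libraries, a ratio of 15.6 (95% counting interval 5.18 to 76.6). Lime had 2 and 68 reads, a ratio of 14.7 (3.91 to 124). In none of these 4 genes did an allele library reach down to the control range, which was a condition for naming genes with extreme fold changes. The fitted value of Mec2 was 3.82, and 4.61 without control replicate 2; that of Lime was 3.61, and 6.40 without control replicate 3.

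Genes at moderate levels rose as well. Cyp4p2, a cytochrome P450 gene (FBgn0033395, 2R:9237512-9239831), had 0, 4.54 and 0.88 CPM in control libraries, 46.3, 48.2 and 48.9 in heterozygotes and 38.3, 37.2 and 54.5 in homozygotes (4.52 ± 0.41, edgeR adjusted p = 9.88e-06). yellow-d2, of the family of the pigmentation gene yellow, had 0, 3.41 and 0.293 CPM in control and between 24.2 and 40.5 in the allele libraries (4.48 ± 0.45, edgeR adjusted p = 2.41e-05). mthl8, a methuselah-like receptor gene, went from 0, 2.84 and 0 CPM to between 10.1 and 20.2 (3.79 ± 0.51, edgeR adjusted p = 0.000278). For all 3 of these genes control replicate 2 held most of the control reads, and without that library the values were 6.44 for Cyp4p2, 7.27 for yellow-d2 and 8.71 for mthl8. Ance-2, a relative of angiotensin-converting enzyme, rose by 3.44 ± 0.45 (edgeR adjusted p = 0.000206), or by 4.11 without control replicate 1. The long noncoding RNA lncRNA:CR44922 went from 9.97 to 13.1 CPM in control to 53.4 to 82.6 CPM in the allele libraries (2.66 ± 0.16, edgeR adjusted p = 1.55e-07). Hr38, a nuclear receptor gene known to be induced by neuronal activity, had 12.6, 10.8 and 7.63 CPM in control libraries, 96.2, 72.5 and 42.2 in heterozygotes and 120, 111 and 19.7 in homozygotes (2.90 ± 0.51, edgeR adjusted p = 0.00179). Its homozygous libraries were widely spread: replicates 1 and 2, which held digestive transcripts, were high and replicate 3 was the lowest of the 6 carriers, and without replicates 1 and 2 the value was 1.86 (edgeR adjusted p = 0.000315). The part of the digestive transcripts in this spread was not tested.

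A smaller set differed strongly between the carriers, so that their average hides a difference between doses. CG31287 (FBgn0051287, 3R:16203371-16204961) stood at 33.1, 34.2 and 29.0 CPM in the heterozygous libraries, at 0.479, 0.559 and 1.22 in the homozygous and at 0.372, 0.284 and 0 in control. Its level was thus high in heterozygotes alone, and homozygous minus heterozygous was -5.34 ± 0.32 (edgeR adjusted p = 6.46e-07). The gene overlaps mtSSB on the other strand. Ugt35B1, a UDP-glycosyltransferase gene (FBgn0026314, 3R:11168503-11170246), showed the opposite arrangement. It had 81.7, 87.4 and 83.9 CPM in control libraries, 77.7, 70.6 and 74.0 in heterozygotes and 2.4, 3.35 and 1.46 in homozygotes. The average difference of -2.66 came almost wholly from the homozygotes, where the difference from control was -5.14, against -0.19 in the heterozygotes (edgeR adjusted p = 1.64e-09 and 0.443, with shared controls). Osi6 had 0 to 2 reads in control, 2 to 4 in heterozygotes and 26 to 30 in homozygotes (2.49 ± 0.59, edgeR adjusted p = 0.0107), and CG13376 ran from 5.21 ± 1.24 CPM in control to 2.96 ± 0.904 and 0.694 ± 0.367 (SD, n = 3; -1.84 ± 0.36, edgeR adjusted p = 0.00363). With the 6 carriers as 1 group the calls of CG31287, Ugt35B1, Osi6 and CG13376 were lost (edgeR adjusted p = 0.0629, 0.416, 0.0762 and 0.0775).

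For other genes the allele groups lay on opposite sides of control and the average passed no test. CG31104 had 14, 19 and 3 reads in control, 0 in each heterozygous library and 27, 43 and 23 in the homozygous. Its average difference of -2.84, which depends on how the fit treats the 0 reads of the heterozygotes, missed the threshold (edgeR adjusted p = 0.0546). Mal-A6, a maltase gene of the digestive tract, had 6, 26 and 7 reads in control libraries, 0, 3 and 0 in heterozygotes and 154, 203 and 12 in homozygotes (average -0.33, edgeR adjusted p = 0.868). The homozygous values followed the other digestive transcripts, being high in replicates 1 and 2.

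Gene groups were described by how many of their tested members passed, against the 8.75% of all tested genes that were higher and the 7.4% that were lower. Since libraries are bulk heads, fewer cells of a type and less RNA per cell cannot be told apart. The median log2 fold change over all tested genes was 0.00296.

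**Figure D3:**
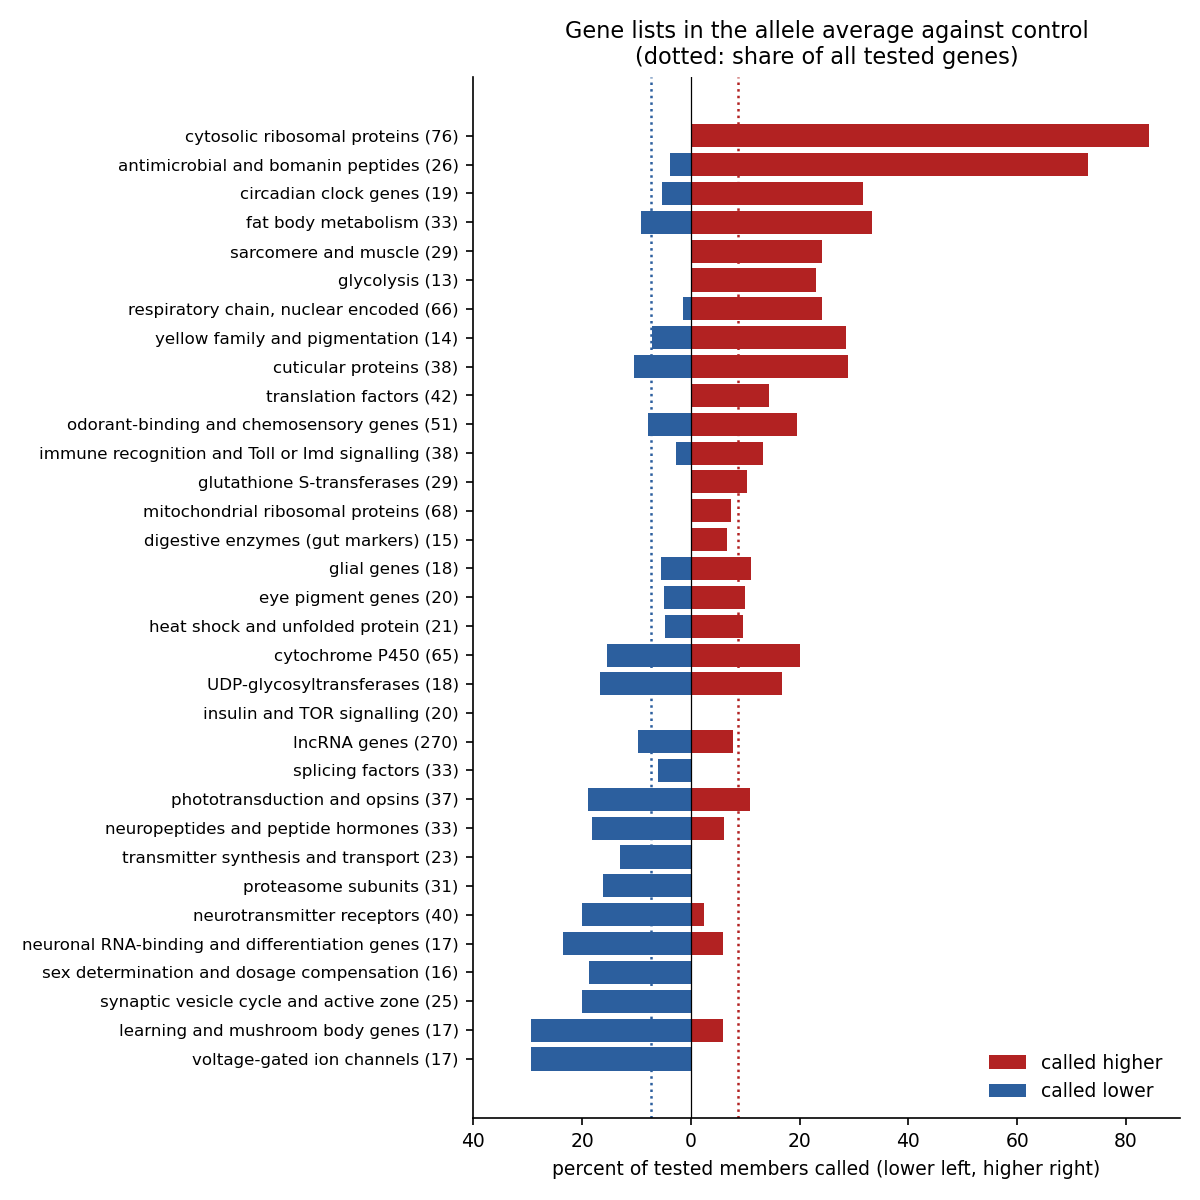
Percent of tested members called higher (red, to the right) and lower (blue, to the left) in the allele average for each list with at least 12 tested members, number of tested members in brackets. Dotted lines mark the 8.75% and 7.4% of all tested genes; the cytosolic ribosomal proteins and the antimicrobial and bomanin peptides have the longest red bars.

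Transcripts of the translation machinery were higher in the carriers. Of 76 tested genes of cytosolic ribosomal proteins 64 rose and 0 fell, with a median of 0.61 and a range of 0.21 to 0.97. In 59 of the 76 all 6 allele libraries lay above all 3 controls, and 0 were called between the allele groups. RpS27A, made as a fusion with ubiquitin and overlapped on its own strand by Ip259, had 374, 364 and 424 CPM in control libraries, 686, 561 and 862 in heterozygotes and 804, 832 and 664 in homozygotes (0.92 ± 0.14, edgeR adjusted p = 0.000572). Every carrier lay above every control library. The small subunit genes sta and RpS16 rose by 0.81 and 0.78 (edgeR adjusted p = 0.000589 and 0.000484). The rise was thus modest in each gene and shared by most. The count was 34 without control replicate 2 and 54 after the exon length trend was removed, where the median was 0.44. Without the 3 libraries that held gut or ovary transcripts 52 were called.

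Elongation and initiation factors shared the direction in part: 6 of 42 translation factor genes rose and 0 fell, among them eEF1gamma (0.53 ± 0.10, edgeR adjusted p = 0.00313). Of 68 mitochondrial ribosomal protein genes 5 rose (7.35%, close to the background share) and 0 fell, and 0 rose without control replicate 2 and 12 without homozygous replicate 3. Nuclear-encoded subunits of the respiratory chain rose in 16 and fell in 1 of 66, with a median of 0.33. The ATP synthase gene ATPsynD rose by 0.63, and the cytochrome c oxidase subunit genes COX7C and COX7A by 0.67 and 0.53 (edgeR adjusted p = 0.00174, 0.00437 and 0.00755). These are short transcripts. With the exon length trend removed the respiratory list gave 5 higher and 3 lower genes with a median of 0.14, without control replicate 2 it gave 3 higher genes, and without homozygous replicate 3 it gave 34. Without control replicate 1 or 3 its higher genes numbered 10 and 7, without heterozygous replicate 1, 2 or 3 they numbered 10, 9 and 8, and without homozygous replicate 2 there were 10. They numbered 8, with a median of 0.18, without the 3 libraries with gut or ovary transcripts, 9 with the carriers as 1 group and 10 with libraries scaled to total reads. The 6 calls among translation factors became 2 without control replicate 1 or 2, 3 without control replicate 3 or heterozygous replicate 1 or 3, and 12 without homozygous replicate 3. In the opposite direction, 5 of 31 proteasome genes fell and 0 rose. Rpn1, which belongs to the regulatory particle, fell from 844 ± 143 CPM in control to 498 ± 105 in the allele libraries (SD, n = 3 and 6; -0.78 ± 0.13, edgeR adjusted p = 0.00108). The proteasome list's median of -0.31 was 0.02 without the 3 libraries with gut or ovary transcripts, where 2 members rose and 2 fell. Its count of lower genes was 1 without control replicate 2, control replicate 3 or heterozygous replicate 2, 2 without heterozygous replicate 1, 3 without homozygous replicate 1 and 18 without homozygous replicate 3.

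**Figure D4:**
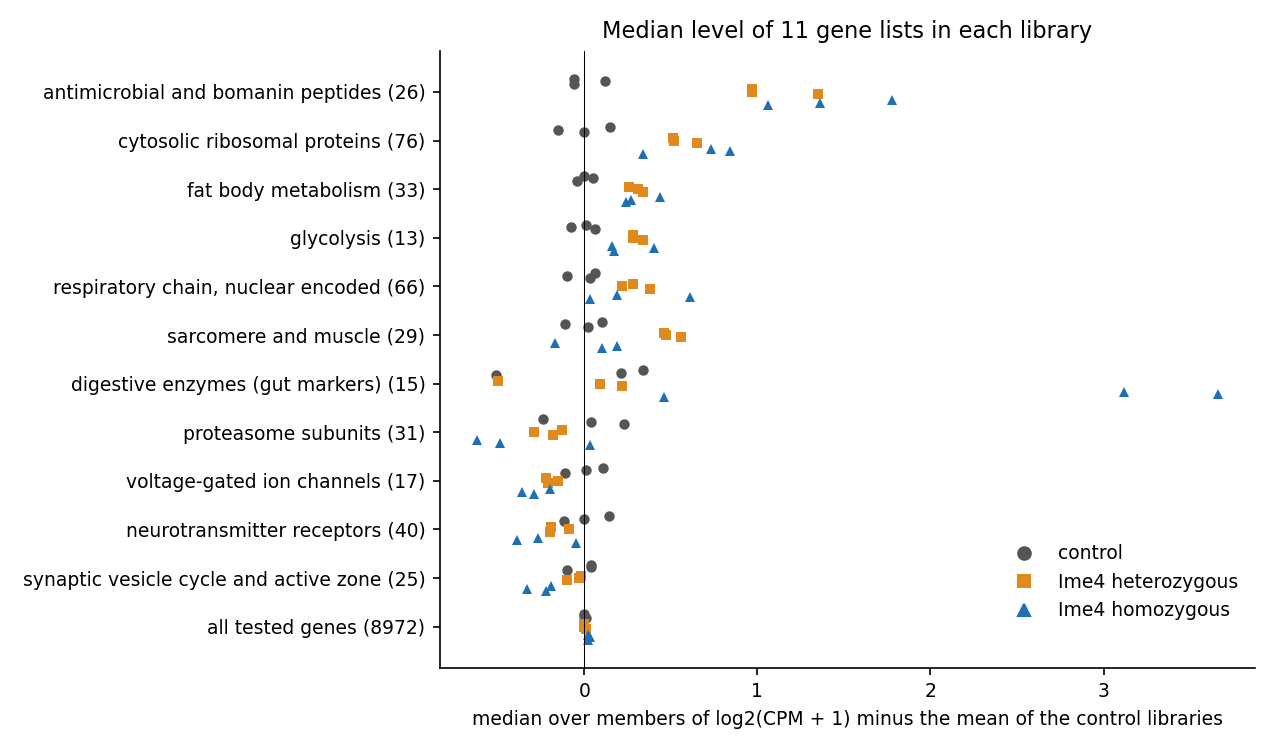
For 11 gene lists and for all tested genes, the median over the members of log2(CPM + 1) minus the mean of the control libraries, 1 symbol per library (grey circles control, orange squares heterozygous, blue triangles homozygous). Antimicrobial peptides lie between 0.97 and 1.78 and ribosomal proteins between 0.34 and 0.84 in the 6 allele libraries, above every control; digestive enzymes stand out in homozygous replicates 1 and 2 at 3.12 and 3.66.

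Effectors of the humoral immune response were higher in the carriers, with 73.1% of the tested peptide genes called higher. In flies these short peptides are secreted mainly by the fat body under the Toll and Imd pathways. Of 26 tested genes of antimicrobial and bomanin peptides 19 rose and 1 fell, with a median of 1.39. Drsl4, a drosomycin-like peptide gene, had 2.97, 3.41 and 1.47 CPM in control libraries, 53.0, 56.3 and 73.1 in heterozygotes and 81.9, 93.1 and 94.9 in homozygotes (4.81 ± 0.23, edgeR adjusted p = 1.46e-08). BomS2, a bomanin under Toll control, went from 53.1, 94.5 and 76.6 CPM to 438, 392 and 794 in heterozygotes and 1001, 780 and 759 in homozygotes (3.17 ± 0.25, edgeR adjusted p = 3.09e-06). BomT2 and BomS3, of the same gene cluster, rose by 2.66 and 1.40 (edgeR adjusted p = 5.55e-06 and 2.31e-05). In these 4 genes every carrier lay above every control library. The member that fell was Dro, which encodes drosocin, from 11.5, 14.8 and 8.51 CPM in control to between 0.611 and 3.11 CPM in the allele libraries (-2.64 ± 0.39, edgeR adjusted p = 0.000469). The allele groups did not differ detectably for Dro (0.02 ± 0.60, edgeR adjusted p = 0.992). Without control replicate 3 the count of peptide genes called higher was 11.

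Receptors and signalling components of the same pathways had 5 of 38 genes higher (13.2%) and 1 lower (2.63%), and with libraries scaled to total reads 2 and 2. PGRP-SB1, a peptidoglycan recognition protein, had 1.49, 3.69 and 3.81 CPM in control libraries, 10.9, 8.12 and 8.87 in heterozygotes and 27.3, 18.2 and 21.9 in homozygotes. It rose by 2.22 ± 0.28 on average (edgeR adjusted p = 0.000178) and further in the homozygotes. nec, a serpin that restrains Toll activation, rose by 0.69 ± 0.14 (edgeR adjusted p = 0.00438). The stress-induced peptide gene TotA rose by 1.85 ± 0.30 (edgeR adjusted p = 0.000918), to 31.1 ± 11 CPM in heterozygotes and 89 ± 34.5 in homozygotes from 14.7 ± 2.93 in control (SD, n = 3). Of 9 haemocyte marker genes 3 rose and 2 fell, and PPO2, a prophenoloxidase of crystal cells, rose by 1.89 ± 0.34 (edgeR adjusted p = 0.00195). The summed level of the defining haemocyte markers was 59.73 to 70.68 RPM in control and 58.98 to 88.46 in allele libraries, and its part in the immune genes was not tested. The recognition list's 5 calls became 2 without heterozygous replicate 1 or 3, 3 without control replicate 1 or homozygous replicate 1 or 2, and 7 without homozygous replicate 3. Leaving out single libraries gave 1 to 4 higher and 0 to 2 lower haemocyte genes.

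Genes of fat body metabolism passed more often as higher than as lower, 11 (33.3%) against 3 (9.09%) of 33, and the median over the list was 0.28. The sorbitol dehydrogenase genes Sodh1 and Sodh2 rose by 1.71 ± 0.15 and 1.18 ± 0.17 (edgeR adjusted p = 7.95e-06 and 0.000506). Sodh1 had 24.5, 31.5 and 28.2 CPM in control libraries, 64.5, 67.2 and 76.7 in heterozygotes and 131, 143 and 96.1 in homozygotes, a step at each dose without overlap. Men, the cytosolic malic enzyme, rose by 0.81 ± 0.12 and Hex-C, a hexokinase, by 0.81 ± 0.15 (edgeR adjusted p = 0.000459 and 0.00202). Hsl, the hormone-sensitive lipase that mobilises stored fat, fell from 40.8 ± 8.28 to 21.7 ± 1.15 CPM (SD, n = 3 and 6; -0.91 ± 0.15, edgeR adjusted p = 0.000918). The summed level of the head fat body markers was 3822 to 5213 RPM in control, 5637 to 9042 in heterozygotes and 2613 to 7025 in homozygotes, and its part in these counts was not tested. Of 29 sarcomere and muscle genes 7 rose and 0 fell, led by Mlc1, a myosin light chain, from 1677 ± 94.0 CPM in control to 3815 ± 31.9 in heterozygotes and 3002 ± 668 in homozygotes (1.01 ± 0.13, edgeR adjusted p = 0.000219), and Act57B, a muscle actin, by 0.68 ± 0.13 (edgeR adjusted p = 0.00272). The muscle list also held 9 genes lower and 2 higher in homozygotes than in heterozygotes. Against the same controls it gave 13 higher and 1 lower genes in heterozygotes (median 0.48) and 3 higher and 1 lower in homozygotes (median 0.03). Summed muscle markers were 4386 to 5450 RPM in control, 7712 to 8303 in heterozygotes and 3946 to 6019 in homozygotes, and their part was not tested. The count of higher fat body genes was 7 without control replicate 1 and 17 without homozygous replicate 3, and that of lower ones was 1 without control replicate 2. The muscle count was 2 without control replicate 1 or 2 or with the carriers as 1 group, 12 without the 3 libraries with gut or ovary transcripts, 3 or 4 without control replicate 3 or heterozygous replicate 1 or 3, and 13 without homozygous replicate 3.

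Most of the neuronal transcripts that were called were lower in the average of the carriers. Among 25 genes that serve synaptic vesicles and the active zone 5 fell and 0 rose (20% against 7.4%), with a median of -0.16. Syt1, the calcium sensor of vesicle release, had 2318, 2375 and 2039 CPM in control libraries, 1449, 1423 and 1344 in heterozygotes and 1095, 1049 and 1181 in homozygotes (-0.85 ± 0.10, edgeR adjusted p = 6.11e-05). Syn, the synapsin gene, fell by 0.57 ± 0.10 (edgeR adjusted p = 0.00181). Rbp, the RIM-binding protein of the active zone, fell by 0.41 ± 0.09 (edgeR adjusted p = 0.00593), a call that was lost once the exon length trend was removed (-0.25, edgeR adjusted p = 0.0535). Not every pan-neuronal gene moved: nSyb, at -0.08 ± 0.09, and brp, at -0.16 ± 0.10, did not pass (edgeR adjusted p = 0.622 and 0.305).

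In the list of voltage-gated ion channels 5 of 17 genes fell and 0 rose, with a median of -0.25. The L-type calcium channel gene Ca-alpha1D went from 412, 399 and 351 CPM in control to 266, 279 and 245 in heterozygotes and 217, 212 and 194 in homozygotes (-0.73 ± 0.09, edgeR adjusted p = 2e-04). The T-type channel gene Ca-alpha1T and Shab, a potassium channel gene, fell by 0.62 and 0.57 (edgeR adjusted p = 0.000987 and 0.000918), both further in the homozygotes, and Shab's call was lost with the carriers as 1 group (edgeR adjusted p = 0.0626). Among 40 neurotransmitter receptor genes 8 fell and 1 rose. The octopamine receptor gene Octbeta1R fell by 0.76, the nicotinic subunit gene nAChRbeta2 by 0.58, and Nmdar2 and Nmdar1, which form the glutamate receptor of the NMDA type, by 0.52 and 0.50 (edgeR adjusted p = 0.000828, 0.00237, 0.00277 and 0.00722). The lower members made up 20%, 29.4% and 20% of the synaptic, channel and receptor lists, against 7.4% of all tested genes. Against the same controls, lower genes of the 3 lists numbered 3, 1 and 3 in heterozygotes and 6, 6 and 11 in homozygotes. Receptor genes called higher numbered 0 and 3, and the other 2 lists had 0. The list medians were -0.05, -0.17 and -0.15 in heterozygotes and -0.28 for each list in homozygotes. With the exon length trend removed the synaptic, channel and receptor lists gave 2, 3 and 5 lower genes in the average. Without control replicate 2 synaptic and channel genes gave 3 and 3, without control replicate 1 channel and receptor genes gave 3 and 4, and receptor genes gave 5 without heterozygous replicate 1 and 13 without homozygous replicate 3.

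Of 17 neuronal RNA-binding and differentiation genes 4 fell and 1 rose, with a median of -0.17. That median was -0.01 with the exon length trend removed and 0.00 without the 3 libraries with gut or ovary transcripts. The 4 became 2 with the trend removed, with the carriers as 1 group, and without control replicate 1 or 2 or any heterozygous replicate. The member elav, the pan-neuronal RNA-binding protein, was at 575, 418 and 407 CPM in control libraries, 297, 309 and 279 in heterozygotes and 264, 206 and 314 in homozygotes (-0.75 ± 0.14, edgeR adjusted p = 0.00241). Vap33, an endoplasmic reticulum tether needed at the neuromuscular synapse, fell by 0.66 and mbl, the splicing factor muscleblind, by 0.87 (edgeR adjusted p = 0.000797 and 9.86e-05). mbl was 1 of 2 among 33 splicing factor genes that fell, and 0 rose. The 2 make up 6.06% of the list, below the 7.4% of all tested genes. The splicing factor count was 1 without control replicate 1 or 2 or heterozygous replicate 2 or 3, and 4 without homozygous replicate 3. Of 33 neuropeptide genes 6 fell (18.2%) and 2 rose (6.06%, below the 8.75% of all tested genes). The list had a median of -0.16 and a range of -1.21 to 1.77. The 2 that rose were Pdf, the transmitter of clock neurons, at 11.5, 12.5 and 12.6 CPM in control and between 19.2 and 31.8 in the carriers (1.03 ± 0.19, edgeR adjusted p = 0.00227), and Crz, corazonin, from 1.17 ± 0.304 CPM to 4.04 ± 0.790 (SD, n = 3 and 6; 1.77 ± 0.36, edgeR adjusted p = 0.0047). Without the 3 libraries with gut or ovary transcripts Crz stood at 1.66 and missed the threshold (edgeR adjusted p = 0.0534). Nplp1, a neuropeptide precursor, fell by 0.45 ± 0.10 (edgeR adjusted p = 0.00785). The count of lower neuropeptide genes was 3 without control replicate 2 and 2 without control replicate 3. The summed level of the 4 defining neuronal markers was 5376 to 5681 RPM in control and 3506 to 4341 in the carriers. Syt1, itself a called list member, made up most of this difference, at 2184 to 2426 RPM in control and 1040 to 1441 in the carriers, while nSyb was at 1666 to 1744 and 1446 to 1629. The part of the marker levels in the neuronal lists was not tested.

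Of 37 phototransduction genes 7 fell (18.9%) and 4 rose (10.8%, near the background share), and with the carriers as 1 group 1 fell. The carrier groups were unlike: against the same controls heterozygotes gave 7 higher and 2 lower genes and homozygotes 3 higher and 9 lower. Rh5, the blue-sensitive opsin of R8 photoreceptors, had 32.0, 38.3 and 37.3 CPM in control libraries, 103, 83.7 and 118 in heterozygotes and 74.5, 64.0 and 79.8 in homozygotes (1.26 ± 0.14, edgeR adjusted p = 5.19e-05). Calmodulin (Cam), the calcium sensor, rose from 11360 ± 451 to 22486 ± 2292 CPM (SD, n = 3 and 6; 0.98 ± 0.11, edgeR adjusted p = 6.11e-05), and stops, which is needed to end the light response, by 0.55 ± 0.12 (edgeR adjusted p = 0.00513). inaF-B, whose product binds the TRP channel and whose locus overlaps other inaF genes, fell by 1.32 ± 0.14 (edgeR adjusted p = 4.89e-05). ninaE, the major rhodopsin, was at -0.32 ± 0.11 and missed the threshold (edgeR adjusted p = 0.058). The count of lower phototransduction genes was 2 without control replicate 1, 3 without control replicate 2 or heterozygous replicate 1, 4 without control replicate 3 or heterozygous replicate 2 or 3, and 12 without homozygous replicate 3. The summed photoreceptor markers were 21649 to 24908 RPM in control and 15228 to 21009 in the carriers, and their part was not tested. Most of the sum was ninaE, at 13661 to 15560 RPM in control and 9105 to 12756 in the carriers. The marker trp was at 2408 to 2827 RPM in control, higher at 3280 to 3485 in heterozygotes, and at 2372 to 3052 in homozygotes. Of 19 clock genes, Pdf included, 6 rose (31.6%) and 1 fell (5.26%), with a median of 0.00. tim, a repressor of the clock, went from 123, 142 and 118 CPM to between 200 and 278 (0.86 ± 0.12, edgeR adjusted p = 0.00041), and vri, which represses the transcription of Clk, rose by 0.78 ± 0.14 (edgeR adjusted p = 0.00165). Both cycle with the time of day, which the labels do not give for any library. The 6 became 4 without control replicate 2 or heterozygous replicate 1, 3 without control replicate 3 or without the 3 libraries with gut or ovary transcripts, and 4 with libraries scaled to total reads, where 3 fell.

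Enzymes of foreign compound metabolism changed in both directions. Of 65 cytochrome P450 genes 13 rose (20%) and 10 fell (15.4%), both above the background shares. Cyp4p2 and its neighbour Cyp4p1 (FBgn0015037, 2R:9240041-9242139) moved apart: Cyp4p1 had 60.2, 61.0 and 66.6 CPM in control and between 24.4 and 35.8 in the carriers (-1.16 ± 0.13, edgeR adjusted p = 4.62e-05). Cyp6a20 rose from between 31.1 and 46.1 CPM to between 99.8 and 164 (1.79 ± 0.16, edgeR adjusted p = 7.99e-06). Cyp6w1 went from 123, 114 and 109 CPM in control to 29.7, 31.4 and 28.7 in heterozygotes and 19.4, 17.3 and 22.9 in homozygotes (-2.24 ± 0.11, edgeR adjusted p = 1.66e-08). The groups of these genes did not overlap, which the choice of named genes favoured. The count of P450 genes called higher was 5, 6 and 7 without control replicate 1, 2 and 3. In the UDP-glycosyltransferase family 3 of 18 genes rose and 3 fell; beside Ugt35B1, Ugt37A3 fell by 3.30 and Ugt49C1 by 1.22, and Ugt35C1 rose by 1.65 (edgeR adjusted p = 2.48e-06, 0.000589 and 0.000444). The 3 that rose became 1 without control replicate 2 and 5 without homozygous replicate 3.

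Cuticle, pigment and chemosensory genes also differed. The pigmentation gene yellow (y, FBgn0004034, X:356509-361245), needed for black melanin in the cuticle, had 5 reads in each control library and 38, 45, 49, 41, 32 and 35 in the allele libraries (2.76 ± 0.28, edgeR adjusted p = 2.28e-05). With yellow-d2 and yellow-e (0.84 ± 0.13, edgeR adjusted p = 0.000553) it was among 4 of 14 genes of its list that rose. The list's falling member was t (tan), a hydrolase that also frees histamine for photoreceptor transmission, which fell by 0.77 ± 0.10 (edgeR adjusted p = 0.00024). v (vermilion), an enzyme of brown eye pigment, rose by 1.07 ± 0.24 (edgeR adjusted p = 0.00689), and its call was lost without control replicate 2 (0.98, edgeR adjusted p = 0.0514). Of 38 cuticular protein genes 11 rose (28.9%) and 4 fell (10.5%). Cpr51A rose by 1.61, Cpr62Bc by 0.97 and Cpr49Ae by 0.92, and Ccp84Ab fell by 1.02 (edgeR adjusted p = 0.000336, 4.25e-05, 7.13e-05 and 0.00178). For Cpr62Bc, Cpr49Ae, Ccp84Ab and yellow-e the homozygous libraries were further from control. The 4 falling cuticular genes were 8 without homozygous replicate 3. Among 51 odorant-binding and chemosensory genes 10 rose (19.6%) and 4 fell (7.84%, near the background share). The odorant-binding protein genes Obp99c and Obp83b rose by 1.5 and 1.05 and Obp57a fell by 1.35 (edgeR adjusted p = 5.57e-05, 0.000206 and 0.000527). Against the same controls the list's median was 0.33 in heterozygotes and 0.02 in homozygotes, with 10 genes higher in each and 3 and 5 lower. Between the carrier groups 6 members were lower and 3 higher in homozygotes.

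Of 16 tested genes of sex determination and dosage compensation 3 fell and 0 rose. All 3 encode subunits of the male-specific lethal complex, which raises transcription of the single X chromosome in males; its subunit MSL-2 is repressed by Sex-lethal in females. msl-2 had 49.0, 51.1 and 49.9 CPM in control libraries, 36.2, 40.3 and 31.5 in heterozygotes and 33.8, 29.6 and 34.5 in homozygotes (-0.54 ± 0.12, edgeR adjusted p = 0.00646), and its call was kept when any single library was left out. msl-1 and msl-3 were at -0.48 ± 0.15 and -0.67 ± 0.21 (edgeR adjusted p = 0.0445 and 0.0405), close to the threshold. The call of msl-1 was lost without any control library, without heterozygous replicate 2 or 3 and without homozygous replicate 2 (edgeR adjusted p = 0.0592 to 0.133). That of msl-3 was lost without any library except homozygous replicate 3 (edgeR adjusted p = 0.0549 to 0.237). In all 3 genes every carrier library lay below every control. With DESeq2 both missed the threshold (adjusted p = 0.0562 and 0.0814).

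Of 270 tested long noncoding RNA genes 21 rose and 26 fell, which at 7.78% and 9.63% is near the shares of all genes. lncRNA:noe had 1144, 1192 and 1188 CPM in control libraries, 715, 592 and 673 in heterozygotes and 330, 332 and 424 in homozygotes, so that its levels fell in steps (-1.27 ± 0.11, edgeR adjusted p = 4.89e-06). asRNA:CR43463, which lies opposite Pgant35A, fell by 2.64 ± 0.26 (edgeR adjusted p = 2e-05). The 21 became 13 without control replicate 2, control replicate 3 or heterozygous replicate 1, and the 26 became 16 without control replicate 2.

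Calls were not gathered around the targeted locus. Within 0.5 Mb of Mettl3 11 of 110 tested genes were called (10%), within 2 Mb 55 of 381 (14.4%) and within 5 Mb 116 of 745 (15.6%), against 199 of 1420 (14%) on the rest of arm 3R. By chromosome arm the share was 18% on 2L, 18.6% on 2R, 14.5% on 3L, 14.6% on 3R, 15.2% on X and 18% of 89 genes on chromosome 4. The shares near the locus thus lay at or below the 16.2% of all tested genes. The genes with the sharpest losses, sordd2, CG8245, CG31808 and lncRNA:CR32385, lie on X, 2R, 2L and 3L.

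Direction followed transcript length. With the genes split into 5 equal classes by summed exon length, in the shortest class (median 861 bases) 15.5% were higher and 3.7% lower, and in the longest class (median 6118 bases) 3.92% were higher and 12.8% lower. The median log2 fold change ran from 0.19 in the shortest to -0.12 in the longest class, and it had the same order in heterozygous (0.13 to -0.10) and homozygous libraries (0.29 to -0.15) taken singly, which share the controls. With the trend removed within each library the shares were 10.2% and 6.99% in the shortest and 8.7% and 7.96% in the longest class. Ribosomal protein genes had a median exon length of 922 bases, antimicrobial and bomanin peptide genes 394 and voltage-gated channel genes 10481. The length trend thus moves with each of these results. With the trend removed the peptide genes called higher numbered 16, against 19 as counted, and their median was 1.11, against 1.39. The cause of the trend was not tested.

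**Figure D5:**
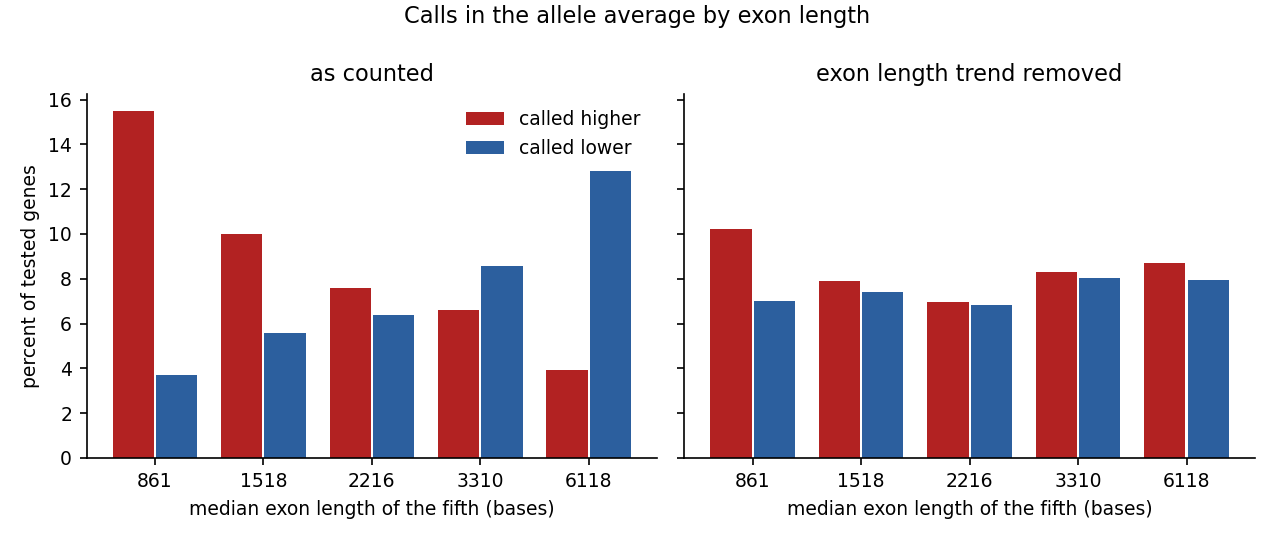
Percent of tested genes called higher (red) and lower (blue) in the allele average for 5 equal classes of genes by summed exon length, labelled by their median length in bases, as counted (left) and with the exon length trend of each library removed (right). As counted, higher calls go from 15.5% to 3.92% and lower calls from 3.7% to 12.8% between the shortest and the longest class; after removal the bars are nearly level.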

How the data were processed

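RNA was measured in 9 libraries of whole heads. Per the labels' protocols, Trizol extraction and oligo-dT selection were followed by a directional library kit. The submitters' processing notes name CASAVA 1.8.4, STAR 2.4.0h, HTSeq 0.6.1 and DESeq2 1.6.3 and build BDGP6. Whether counting used strand is not given in the sources used here. The authors deposited raw read counts per gene for each library, with 5 closing lines for other reads, which stayed out of library sizes and tests. Gene names, coordinates and exon lengths came from Ensembl's BDGP6 annotation, where 17252 of 17558 gene IDs were found.

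Counts were scaled by TMM (factors 0.9583 to 1.075) in edgeR 4.0.16 under R 4.3.3 and filtered with filterByExpr (minimum count 10, total 15). All differences come from 1 quasi-likelihood fit of 3 group means. P-values were adjusted by Benjamini-Hochberg over the 8972 genes kept. The allele average gives each carrier group the same weight, and homozygous minus heterozygous is a separate contrast of the same fit. In counts simulated for the allele average over 8972 genes, 34.5%, 68.5% and 93% of genes changed 1.5-, 2- and 4-fold were recovered, and 5.11% of calls were unchanged genes. The simulation changed a small part of the genes, by the same fold in both carrier groups. It held no length trend, no outlying library and no gut or ovary transcripts of single libraries, so these shares are not rates for the real data. For groups with up to 3 reads, ratios of pooled reads with 95% counting intervals, or a floor of 3 reads for 0, are given; both cover counting error only. With 6 against 3 libraries the smallest two-sided exact permutation p is 0.02381.

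Alternatives were other scalings (with DESeq2 1.42.0's size factors among them), other filters, DESeq2 and limma-voom (limma 3.58.1) tests, stricter thresholds, the carriers as 1 group, a replicate block, removal of each library's trend with exon length, and leaving out libraries. Named genes were Mettl3 and Ythdc1, the extreme fold changes among called genes with at least 2 CPM on average and no overlap of carriers and control (15 each way), those level or unlike in the carrier groups (8 and 6 each way), up to 4 genes on opposite sides, and up to 4 members per list with the lowest p; list members whose call was lost without single libraries are mostly given in counts only. nSyb, brp and ninaE are cell type markers. The members, the 41 gene lists and the rules were chosen with earlier results of these data known. A gene that the rule picks is not reported here. No sequence is printed.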

Additional observations from a re-analysis of the deposited data

Results flagged for a closer look

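The homozygous and the heterozygous group, set against the same control libraries, differed in their effect for 23 of the genes named, by edgeR's test of homozygous against heterozygous libraries (edgeR adjusted p under 0.05) within the fit of all 9 libraries.

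Lower in homozygotes were CG31287 (-5.34), Ugt35B1 (-4.95), Mettl3 (-2.34), CG13376 (-2.08), Ugt37A3 (-1.54), Ccp84Ab (-0.90), lncRNA:noe (-0.87), Ythdc1 (-0.69), Shab (-0.60), Cyp6w1 (-0.59), mbl (-0.57), Ca-alpha1T (-0.56) and Nmdar2 (-0.45), in log2 units of homozygous minus heterozygous. All of these but CG31287 also lay below control in the average, so the homozygous libraries were the further from it. Higher in homozygotes were CG31104 (7.82), Mal-A6 (6.63), Osi6 (2.97), TotA (1.51), PGRP-SB1 (1.27), Cpr49Ae (1.01), Obp99c (0.88), Sodh1 (0.83), yellow-e (0.77) and Cpr62Bc (0.76). Of these, the 8 other than CG31104 and Mal-A6 also lay above control in the average. CG31104 had no read in any heterozygous library, so its 7.82 depends on how the fit treats a group without reads and is not a measured fold. Mal-A6, TotA, Obp99c and Sodh1 were lowest in replicate 3 among the homozygous libraries, the 1 without raised digestive transcripts, and the part of those transcripts was not tested.

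With each library left out in turn, 10 of the 23 differences between homozygotes and heterozygotes passed the test every time and 13 missed it at least once. Mettl3, PGRP-SB1 and TotA missed it without heterozygous replicate 2 or 3, Sodh1 and Ca-alpha1T without heterozygous replicate 1 or 2, mbl and Obp99c without any of the 3 heterozygous replicates, and yellow-e without heterozygous replicate 1. Cyp6w1 missed it without any heterozygous replicate or without homozygous replicate 1 or 2, and Ccp84Ab without heterozygous or homozygous replicate 1 or 2. Ugt37A3 passed only without homozygous replicate 2, Nmdar2 only without control or homozygous replicate 3, and CG13376 only without control replicate 2 or 3 or homozygous replicate 2.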

How the results depend on the processing

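Of the 96 named genes called in the allele average, 85 were called in every alternative fit in which they were tested, 11 lost the call in at least 1, and 0 changed direction. By stricter thresholds on the same fit, 93 passed at an adjusted p of 0.01 and 57 at 2-fold or more. Most named genes were chosen by their values in these same libraries, and list members with unstable calls are mostly unnamed. These counts therefore do not describe all calls. Of all 1449 calls, 834 were also called the same way without control replicate 1 and 799 without control replicate 2. Scaling to total reads shifted the median of all genes by -0.058 and turned the split of calls from 785 higher and 664 lower (54.2% higher) to 625 and 885 (41.4% higher). With the carriers as 1 group of 6, higher calls fell to 526, lower calls to 404, synaptic genes to 3 and channel genes to 2. Differences between the carrier groups then count as spread. At an adjusted p of 0.01 the counts were 376 higher, 310 lower and 159 between carrier groups, with 12 peptide, 3 synaptic and 3 channel genes. Asking for at least 2-fold left 227, 137 and 183, and 0 ribosomal, 0 synaptic and 0 channel genes. Removal of the exon length trend left 2 synaptic and 3 channel genes. Calls between the carrier groups numbered 806 without a filter, 1049 without the 3 libraries with gut or ovary transcripts and 802 without the 2 with gut transcripts, a fit chosen after seeing the data. Both of these fits keep 1 homozygous library, assumed to vary like the other groups.

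Leaving out single libraries gave 453 to 1182 higher, 389 to 1094 lower and 139 to 1099 between-group calls, 34 to 72 ribosomal, 11 to 20 peptide, 3 to 7 synaptic and 3 to 6 channel genes. CG31104 turned to 0.12 and Mal-A6 to 2.03 with the carriers as 1 group, and Mal-A6 to 0.57 without control replicate 2 (-1.92 to 0.57 without single libraries); neither was called in the average, and the cause was not tested. Replicate numbers gave no pairing (deviations from group means correlated at -0.0659 to 0.117 for the same number and -0.114 to 0.114 otherwise), and with the replicate block 770 genes were higher and 631 lower. Genes with few reads, such as Mettl3 with 2 or 3 in each homozygous library, have wide errors.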
